A study of Mus musculus with 6 samples.

Results

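Adipocyte genes were followed in RNA-seq of mouse lung, as 10 named members of the 25860 genes in the deposited count table: Adipoq, Plin1, Retn, Cfd, Aoc3, Fabp4, Lep, Cidec, Pck1 and Cdo1. They were picked by name, with their values in these libraries already known, so their group differences are given as a description and without a test. Each had at least 10 reads over the 6 libraries, the minimum for the fit across all genes. There were 3 lungs of RAG1-/- mice, numbered replicates 1, 2 and 3, and 3 of RAG1-/- Sgo1-/+ mice, numbered 4, 5 and 6, with 1 library per sample. All were untreated, on a regular diet and 12 months old, and only lung that looked normal was taken. Both groups lack RAG1, the recombinase that B and T cells need to build their receptors, in the whole body. The second group also has a single working copy of Sgo1, a protector of chromosome cohesion, again in the whole body, so the comparison asks what reduced Sgo1 adds on the RAG1-/- background. The mice were F2 offspring of a RAG1-/- by Sgo1-/+ mating on C57BL/6, and both sexes were used in the study. Nothing in the labels says more about the samples of a group than that they are separate, so the spread below is the spread between these samples.

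Adipocytes store triglyceride in a single large lipid droplet, release fatty acids from it when energy is needed, and secrete hormones (adipokines) such as adiponectin and leptin. In the lung they are not part of the gas-exchange surface, but fat lies beside the large airways, in the hilum and in the mediastinum that borders the organ. The members cover the secreted products (Adipoq, Lep, Retn, Cfd), the lipid droplet proteins (Plin1, Cidec), a fatty acid carrier (Fabp4) and the enzymes Aoc3, Pck1 and Cdo1. Adipoq and Plin1 are close to restricted to adipocytes, whereas Fabp4 is also made by macrophages and capillary endothelium, and Cdo1 and Pck1 are also enzymes of liver and kidney.

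To show what the members share ahead of the gene start, the 250 bases before the start were read from RefSeq promoter windows on GRCm38.p6. Windows were held for 7 of the 10 members and 8 windows in all, with Cidec having a pair, and Aoc3, Fabp4 and Cdo1 were without one. The motif TTGCNNAA, a form bound by the C/EBP factors that drive fat cell differentiation, was searched on both strands. It was found in 3 of the 8 windows, against 9.56% of 32851 RefSeq windows of the same length. The windows of Plin1, Lep and 1 of the pair of Cidec are printed because they hold it, with the match in capitals, and Adipoq because it holds 3 copies of another motif, CCAAT on either strand. All are written 5′ to 3′ on the strand of the gene and end at the base before the start.
Plin1 (chr7:79732777-79733026, minus strand): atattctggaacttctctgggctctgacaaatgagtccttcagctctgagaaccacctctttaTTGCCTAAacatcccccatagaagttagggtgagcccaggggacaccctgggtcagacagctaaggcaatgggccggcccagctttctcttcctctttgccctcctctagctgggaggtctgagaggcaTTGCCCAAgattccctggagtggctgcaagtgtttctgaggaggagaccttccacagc
Lep (chr6:29059971-29060220, plus strand): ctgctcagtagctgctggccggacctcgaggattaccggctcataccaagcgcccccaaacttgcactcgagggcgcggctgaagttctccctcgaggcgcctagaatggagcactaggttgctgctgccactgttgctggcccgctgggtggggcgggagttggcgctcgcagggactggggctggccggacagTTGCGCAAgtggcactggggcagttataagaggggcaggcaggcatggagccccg
Cidec (chr6:113434765-113435014, minus strand): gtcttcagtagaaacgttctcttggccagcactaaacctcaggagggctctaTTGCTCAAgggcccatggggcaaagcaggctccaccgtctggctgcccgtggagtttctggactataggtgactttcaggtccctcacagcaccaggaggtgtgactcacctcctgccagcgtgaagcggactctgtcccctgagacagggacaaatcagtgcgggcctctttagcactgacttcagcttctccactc
Adipoq (chr16:23146286-23146535, plus strand): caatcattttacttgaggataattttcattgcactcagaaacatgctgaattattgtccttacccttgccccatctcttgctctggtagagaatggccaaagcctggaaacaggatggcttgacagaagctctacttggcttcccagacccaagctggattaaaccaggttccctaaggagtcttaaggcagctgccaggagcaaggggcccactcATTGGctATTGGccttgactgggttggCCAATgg
Counted from the gene start, the C/EBP matches began at -187 and -58 in Plin1, at -55 in Lep, where the letters read the same on both strands, and at -198 in Cidec. In Adipoq the CCAAT letters began at -34 and -27 on the minus strand and at -7 on the plus strand, and CCAAT was present in 1 of the 8 windows and in 33.8% of all. The PPAR response element, AGGTCA repeated after 1 base of any kind, was searched on both strands and was in 0 of the 8 windows and in 0.0335% of all windows. Its unit AGGTCA, also on both strands, was in 0 of the 8 and in 14.0% of all. A TATAAA on the gene strand was in 0 of the 8 windows and in 7.59% of all, and the sterol-response motif TCACNNGA on both strands was in 1 (Cidec) of the 8 and in 10.1% of all. These matches are letters in a window and were not tested for binding.

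Total reads on genes ran from 3205822 to 9366774 per library, so that 3 reads, the least amount treated as detected, stand for 0.320 to 0.936 counts per 1000000 reads of the library (CPM). Alveolar type 2 marker genes, led by Sftpc, summed to between 22682 and 32416 CPM in the 6 libraries, and alveolar type 1 markers to between 4369 and 7445 CPM, so the defining genes of the labelled tissue were present. The libraries were not uniform. RAG1-/- replicate 1 had 7717 reads of Xist, the transcript of the inactive X chromosome, and 2 of the Y-linked Ddx3y, while the other 5 libraries had 4 to 8 and 342 to 1228, so sex and this library cannot be told apart. RAG1-/- replicate 2 held B cell transcripts against its label, with 78 reads of Ms4a1 where the other 5 libraries had 0 and a B cell marker sum of 629 CPM against 6.67 to 9.18 CPM. The fold changes of the members are given without replicate 2 as well. RAG1-/- Sgo1-/+ replicate 6 had a summed alveolar macrophage marker level of 6460 CPM, against 401 to 880 CPM elsewhere. The sum does not stand for every marker, since 3 of the 6 were fitted lower in RAG1-/- Sgo1-/+ than in RAG1-/-. At an unadjusted P under 0.05 in edgeR, Siglecf was lower and Chil3 higher in RAG1-/- Sgo1-/+ (smallest adjusted P of the list = 0.832). The targeted genes were too low to check the genotypes, with 6, 2, 4, 6, 0 and 2 reads of Sgo1 and 24, 10, 16, 12, 8 and 8 of Rag1 in replicates 1 to 6.

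Most members, though not Cdo1 or Lep, were far higher in a single RAG1-/- lung than in the others. The summed level of all 10 was 1304, 389 and 332 CPM in RAG1-/- replicates 1, 2 and 3 and 307, 237 and 265 CPM in RAG1-/- Sgo1-/+ replicates 4, 5 and 6. Cdo1 was the largest single part of the sum in replicates 2 to 6, with 224, 194, 171, 153 and 102 CPM. The order of these sums therefore does not stand for the other members. Of the 10 members, 9 were highest in RAG1-/- replicate 1 and 8 were at least 2-fold above every other library there, while over all 17231 tested genes these shares were 11.1% and 0.58%. In the other 5 libraries 0 members stood that far above the rest. Levels per transcript length (CPM divided by the kilobases of exon, RPKM) ranked by the median over libraries as Cdo1 at 114, Cfd at 67.7, Fabp4 at 39.7, Cidec at 10.1, Adipoq at 8.05, Pck1 at 1.92, Aoc3 at 1.30, Retn at 0.99, Plin1 at 0.40 and Lep at 0.37. Each neighbouring pair in that order overlapped in its range over the libraries. In RAG1-/- replicate 1 the order began with Cfd at 592 RPKM, Fabp4 at 267, Cdo1 at 169 and Adipoq at 66.6.

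**Figure D1:**
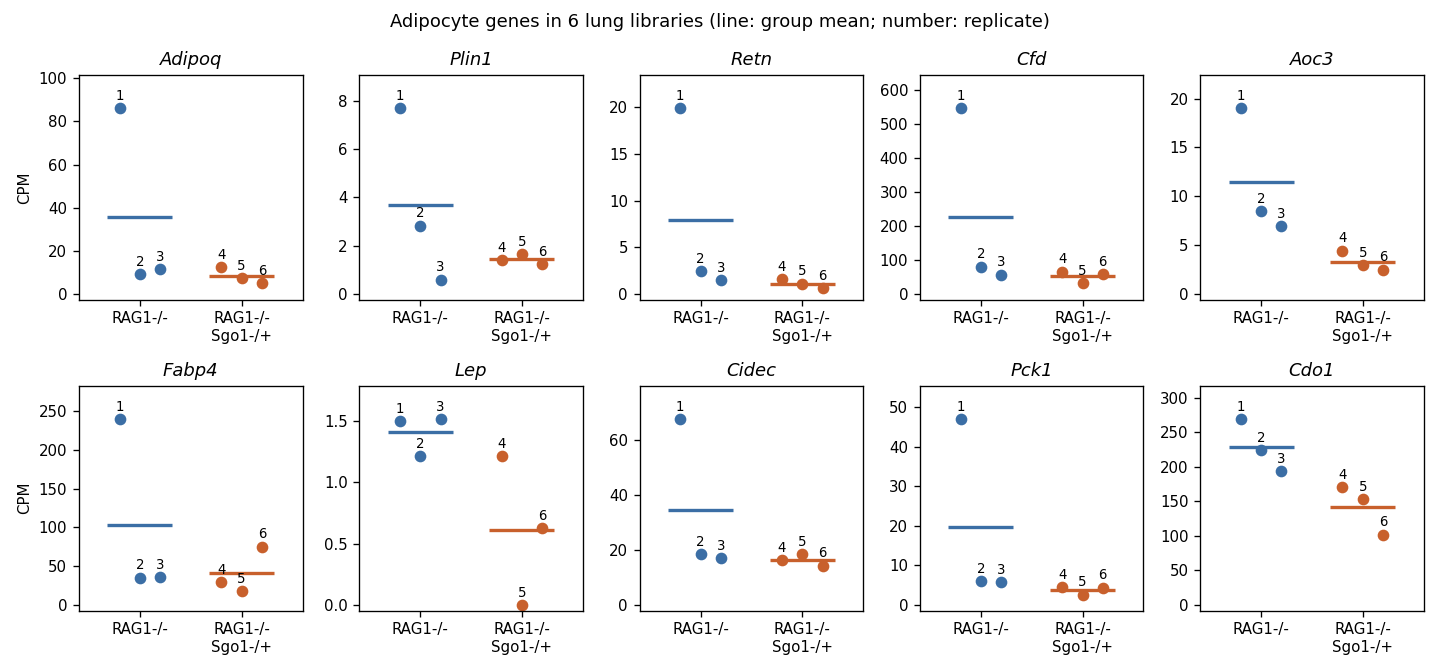
Level of each adipocyte gene in CPM (linear axis from 0, a scale of its own for each gene) in the 3 RAG1-/- and 3 RAG1-/- Sgo1-/+ libraries; points are libraries, numbers are replicates and lines are group means. Replicate 1 stands alone for Adipoq (86.0 CPM against at most 12.5), Retn, Cfd, Fabp4, Cidec, Plin1, Aoc3 and Pck1, while Lep and Cdo1 show no such point.

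All 10 members had a negative fitted log2 fold change (RAG1-/- Sgo1-/+ minus RAG1-/-), with a median of -1.60, where 45.1% of all tested genes had a negative value and their median was 0.03. Without RAG1-/- replicate 1, 9 of the 10 were negative against 45.8% of all genes, and the median of the members was -0.48. It was -1.88 without RAG1-/- replicate 2. Groups did not overlap, with RAG1-/- Sgo1-/+ lower, for 4 members (Aoc3, Pck1, Cdo1 and Lep), where this was so for 5.54% of all tested genes, and for 4 without RAG1-/- replicate 1, where the share over all genes was 12.1%. Those shares describe the contrast that chose the members and no more is read from them. Across all genes the quasi-likelihood test of edgeR called 0 of 17231 at an adjusted P under 0.05 and 2-fold (0.0%). At an unadjusted P under 0.05 it gave 434 lower (2.52%) and 542 higher (3.15%), and DESeq2 called 1 gene at the adjusted threshold. In bulk tissue, fewer adipocytes, less RNA per adipocyte and a difference in other cells that make some members cannot be told apart.

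Adiponectin (Adipoq, Entrez 11450) is the most abundant hormone of fat cells and raises the insulin sensitivity of liver and muscle. It had 806, 46 and 76 reads in RAG1-/- (86.0, 9.29 and 11.5 CPM) and 62, 40 and 16 reads in RAG1-/- Sgo1-/+ (12.5, 7.41 and 4.99 CPM). Replicate 1 was 6.87-fold above the next library and the remaining 5 interleaved between the groups. The group means were 35.6 ± 43.7 and 8.31 ± 3.85 CPM (SD, n = 3 each), and the fitted log2 fold change was -2.10 (SE 0.78), which is 4.27-fold lower. It was -0.30 without RAG1-/- replicate 1 and -2.53 without RAG1-/- replicate 2.

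Adipsin (Cfd, Entrez 11537) is complement factor D, a serine protease that cleaves factor B in the alternative complement pathway and enters the blood mainly from fat. Reads numbered 5113, 398 and 376 in RAG1-/- (546, 80.4 and 56.9 CPM) and 326, 172 and 189 in RAG1-/- Sgo1-/+ (65.9, 31.9 and 59.0 CPM). Here too replicate 1 was apart, 6.79-fold above the next library, and the other RAG1-/- values overlapped with the second group. The fitted log2 fold change was -2.14 (SE 0.73), -0.40 without replicate 1 and -2.54 without replicate 2. Cfd carried 592 RPKM in replicate 1, the highest level per length of any member in any library.

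Resistin (Retn, Entrez 57264), an adipokine of mouse white fat that opposes insulin, showed the widest group difference. It had 186, 12 and 10 reads in RAG1-/- (19.9, 2.42 and 1.51 CPM) and 8, 6 and 2 in RAG1-/- Sgo1-/+ (1.62, 1.11 and 0.62 CPM). Replicate 1 was 8.19-fold above the next library, and replicate 4 lay just above replicate 3, so the groups overlapped. The fitted log2 fold change was -2.80 (SE 0.96) and -0.75 without replicate 1, from libraries with 12 reads or fewer, and -3.20 without replicate 2. Leptin (Lep, Entrez 16846), the hormone that reports fat stores to the hypothalamus, had only 14, 6 and 10 reads in RAG1-/- (1.49, 1.21 and 1.51 CPM) and 6, 0 and 2 in RAG1-/- Sgo1-/+ (1.21, 0.00 and 0.62 CPM). It was the member that did not mark replicate 1, where its level was 0.99 times that of the highest other library. The exact Poisson 95% interval covers counting error only and takes each read as independent. It ran from 0.82 to 2.51 CPM in replicate 1 and from 0.08 to 2.25 CPM in replicate 6, and up to 0.683 CPM for the 0 reads of replicate 5. The groups of Lep were kept apart by a difference between replicates 2 and 4 that was far inside these intervals. Its fitted log2 fold change was -1.20 (SE 0.95). It was -0.57 without RAG1-/- Sgo1-/+ replicate 5, -2.39 without RAG1-/- Sgo1-/+ replicate 4 and -1.29 without RAG1-/- replicate 2.

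Perilipin 1 (Plin1, Entrez 103968) coats the droplet and gates the lipases that empty it. It had 72, 14 and 4 reads in RAG1-/- (7.69, 2.83 and 0.61 CPM) and 7, 9 and 4 in RAG1-/- Sgo1-/+ (1.41, 1.67 and 1.25 CPM). RAG1-/- held both the highest and the lowest library of the series, so the groups overlapped fully. The fitted log2 fold change was -1.37 (SE 0.78), -0.19 without replicate 1, -1.53 without replicate 2, and 1.23 when replicates 1 and 2 were both left out, with 4 reads then standing for the whole RAG1-/- group. Cidec (Entrez 14311) sits where droplets touch and lets them fuse into the large droplet of white fat. It had 634, 92 and 112 reads in RAG1-/- (67.7, 18.6 and 16.9 CPM) and 81, 100 and 46 in RAG1-/- Sgo1-/+ (16.4, 18.5 and 14.3 CPM). Outside replicate 1 the 5 values lay between 14.3 and 18.6 CPM, the narrowest relative spread among the members, and the log2 fold change went from -1.08 (SE 0.47) to -0.10 without that library and to -1.37 without replicate 2.

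Fabp4 (Entrez 11770) carries fatty acids in the cytosol of fat cells, macrophages and capillary endothelium. It had 2245, 174 and 238 reads in RAG1-/- (240 CPM, then 35.2 and 36.0 CPM) and 144, 94 and 241 in RAG1-/- Sgo1-/+ (29.1, 17.4 and 75.2 CPM). The second highest library was RAG1-/- Sgo1-/+ replicate 6, above both remaining RAG1-/- libraries. The fitted log2 fold change was -1.40 (SE 0.75) and turned to 0.15 without RAG1-/- replicate 1, and was -1.80 without RAG1-/- replicate 2. Replicate 6 is also the library with the high macrophage marker sum, and the related carrier Fabp5 had 103 CPM there against 29.5 to 39.5 CPM in the other 5. The part of macrophages in the Fabp4 level was not tested.

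Pck1 (Entrez 18534) makes phosphoenolpyruvate, which fat cells use to build glycerol for triglyceride. It had 440, 30 and 38 reads in RAG1-/- (47.0, 6.06 and 5.75 CPM) and 22, 14 and 14 in RAG1-/- Sgo1-/+ (4.44, 2.59 and 4.37 CPM). Replicate 1 was 7.75-fold above the next library, and the other RAG1-/- libraries were also above every RAG1-/- Sgo1-/+ library. The fitted log2 fold change was -2.42 (SE 0.79), -0.65 without replicate 1 and -2.82 without replicate 2.

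Aoc3 (Entrez 11754), the amine oxidase VAP-1 of fat cell, smooth muscle and endothelial membranes, kept most of its difference. It had 178, 42 and 46 reads in RAG1-/- (19.0, 8.49 and 6.96 CPM) and 22, 16 and 8 in RAG1-/- Sgo1-/+ (4.44, 2.96 and 2.50 CPM). Every RAG1-/- library was above every RAG1-/- Sgo1-/+ library. The group means were 11.5 ± 6.56 and 3.30 ± 1.02 CPM (SD, n = 3 each), the log2 fold change was -1.79 (SE 0.44), and it was -1.20 without replicate 1, -1.96 without replicate 2 and -1.05 without both. Of the 50-base words of its exons, 3.79% also occur in other genes, its neighbour Aoc2 among them, so part of its reads may be shared, while Aoc2 had 2.02 to 3.64 CPM and a log2 fold change of -0.26 (SE 0.46).

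Cdo1 (Entrez 12583), cysteine dioxygenase, opens the path from cysteine to taurine and was the most even member. It had 2523, 1110 and 1283 reads in RAG1-/- (269, 224 and 194 CPM) and 844, 827 and 326 in RAG1-/- Sgo1-/+ (171, 153 and 102 CPM). The groups did not overlap, with means of 229 ± 37.9 and 142 ± 35.8 CPM (SD, n = 3 each). The log2 fold change of -0.69 (SE 0.20) is 1.61-fold lower and changed little, to -0.56 without replicate 1, -0.71 without replicate 2 and -0.45 without both. Among 11 other tested genes of cysteine, taurine and glycerol synthesis, 0 passed an unadjusted P under 0.05 in either direction in edgeR, and their median log2 fold change was 0.01.

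**Figure D2:**
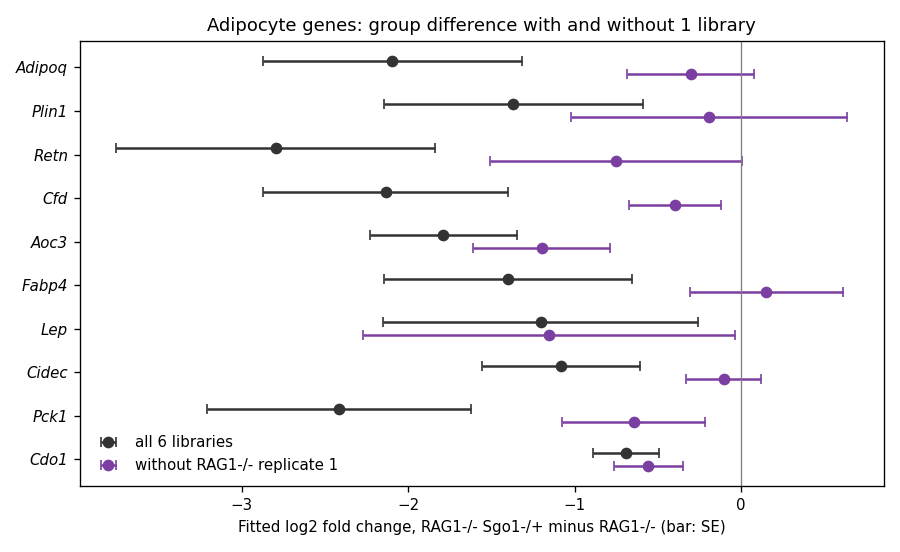
Fitted log2 fold change of each adipocyte gene (x axis, RAG1-/- Sgo1-/+ minus RAG1-/-, bars are SE) with all 6 libraries (dark) and without RAG1-/- replicate 1 (purple). Without replicate 1 the values move toward 0 for Adipoq (-2.10 to -0.30), Retn, Cfd, Cidec, Pck1, Plin1 and Fabp4, and by less for Aoc3 (-1.79 to -1.20). They stay near their place for Lep and Cdo1 (-0.69 to -0.56).

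The proportions of some members to Adipoq were steadier than their levels. Per read of Adipoq there were 0.35 to 0.875 reads of Pck1 and 4.30 to 11.8 of Cfd over the 6 libraries, and the ratio of Retn to Adipoq ranged 2.09-fold, although Adipoq itself ranged from 4.99 to 86.0 CPM. Fabp4 held 2.32 to 3.78 reads per Adipoq read in 5 libraries and 15.1 in RAG1-/- Sgo1-/+ replicate 6. Adipoq was at its lowest in replicate 6, and the ratios of Cfd (11.8), Cidec (2.88) and Pck1 (0.875) were also at their highest there. Cdo1 went the other way, with 3.13 reads per Adipoq read in RAG1-/- replicate 1 and 13.6 to 24.1 elsewhere. The ratio ranged 3.65-fold for Cidec, 4.13-fold for Aoc3 and 5.78-fold for Plin1, with Cidec and Aoc3 at their lowest in RAG1-/- replicate 1. Lep had 0.017 reads per Adipoq read in that library, 0.097 to 0.132 in replicates 2, 3, 4 and 6, and 0 in replicate 5. Thus Retn, Pck1 and Cfd stayed nearest to the proportion to Adipoq. The other members departed from it more, Fabp4 and Cdo1 in a different single library each. Counts fall to 2 reads for Retn, 14 for Pck1 and 16 for Adipoq, so these ratios have counting error, wide for Retn. The members were chosen with their values known and most peak in replicate 1, so the steadier ratios are not independent of that choice.

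Beyond the members, 146 of 155 other adipose genes from 12 lists could be tested. None was called by edgeR (smallest adjusted P = 0.832), and at an unadjusted P under 0.05, 13 were lower (8.90%, against 2.52% of all genes) and 3 higher (2.05%, against 3.15%). The count of 13 was 8 without RAG1-/- replicate 1, 16 without RAG1-/- replicate 2, 20 without RAG1-/- replicate 3 and 4 without RAG1-/- Sgo1-/+ replicate 5. Their median log2 fold change was -0.08, and 0.04 without RAG1-/- replicate 1. In that library 58 of the 146 were at their highest and 16 were at least 2-fold above every other library (0.58% of all genes did so). Of the 100 genes of the whole table that did so, 8 were members and 76 were in no adipose list. RAG1-/- Sgo1-/+ replicate 6 had 432 such genes (2.51%), 0 of them members and 9 of them other adipose genes. The lists were written with earlier results of these data known, so these counts are not independent of the members.

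Of 17 other adipocyte-selective genes, 8 were at least 2-fold above every other library there: Acvr1c, Adig, Aqp7, Car3, Pnpla3, Mrap, Ppp1r1a and Cyp2e1. Carbonic anhydrase 3 (Car3), among the most abundant soluble proteins of mouse fat cells, had 441 CPM in replicate 1 and 27.6 to 65.3 CPM elsewhere, with a log2 fold change of -2.11 (SE 0.72, edgeR adjusted P = 0.832) and -0.46 without replicate 1. Adipogenin (Adig), a small droplet-forming membrane protein, had 150 reads there and 6 to 14 in the other libraries. Aquaporin 7 (Aqp7), the glycerol channel of fat cells, had 20, 2 and 6 reads in RAG1-/- and 0 in each RAG1-/- Sgo1-/+ library. By contrast Slc7a10, a neutral amino acid carrier of fat cells, had 35.1, 36.6 and 29.5 CPM in RAG1-/- and 24.2, 26.5 and 16.5 CPM in RAG1-/- Sgo1-/+, with no peak in replicate 1, groups that did not overlap and a log2 fold change of -0.57 (SE 0.19, edgeR adjusted P = 0.832).

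Among 20 genes of fatty acid uptake and triglyceride synthesis, 15 were highest in replicate 1, and 3 (Dgat2, Elovl6 and Thrsp) by at least 2-fold. Thrsp (Spot 14), a nuclear protein that promotes lipid synthesis, had 120 CPM in replicate 1 and 11.5 to 17.0 CPM elsewhere, and the fatty acid elongase Elovl6 had 26.7 CPM against 6.11 to 7.27 CPM. With Lpin1, a phosphatidate phosphatase, they were the 3 genes of this list at an unadjusted P under 0.05 (log2 fold changes -1.98, -1.16 and -0.49, edgeR adjusted P = 0.832 each), all lower. Fatty acid synthase (Fasn), which is also made by alveolar type 2 cells, had 529 CPM in replicate 1 and 210 to 353 CPM elsewhere, and the desaturase Scd1 was highest in replicate 6. Of 12 droplet genes, only Plin4 passed 2-fold in replicate 1 (34.9 CPM against 7.17 to 10.7 CPM), and of 10 insulin response genes only Slc2a4, the insulin-driven glucose carrier GLUT4 (11.4 CPM against 2.22 to 4.99 CPM).

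Lipolysis, the release of fatty acids from the droplet, was covered by 13 tested genes. Of these, 5 were highest in replicate 1, none by 2-fold, and 2 were lower at an unadjusted P under 0.05. Adrb3, the beta-3 adrenergic receptor that starts lipolysis in fat, had 40.0, 21.4 and 15.3 CPM in RAG1-/- and 16.2, 13.3 and 14.0 CPM in RAG1-/- Sgo1-/+ (log2 fold change -0.83, SE 0.32, edgeR adjusted P = 0.832), and -0.33 without replicate 1. Pde3b, the phosphodiesterase through which insulin restrains lipolysis, had 27.3, 37.4 and 25.7 CPM and then 17.8, 19.5 and 24.3 CPM. Its log2 fold change was -0.56 (SE 0.20, edgeR adjusted P = 0.832) and -0.63 without replicate 1. Without RAG1-/- replicate 2, its highest library, it was -0.38 (SE 0.21). Of 11 adipogenic transcription factors, 0 had an unadjusted P under 0.05, and Pparg, the master regulator of fat cells, was at 24.2, 16.2 and 16.3 CPM against 14.9, 17.4 and 25.9 CPM. Of 11 preadipocyte and adipose stroma genes 1 was highest in replicate 1, and 0 by 2-fold. Of 15 other secreted adipose factors, 4 were highest there, 0 by 2-fold, and 2 were higher in RAG1-/- Sgo1-/+ at an unadjusted P under 0.05, Itln1 and Lcn2, both with their highest level in replicate 6 (16.8 CPM of Itln1 against at most 0.61, and 413 CPM of Lcn2 against 55.4 to 115).

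**Figure D3:**
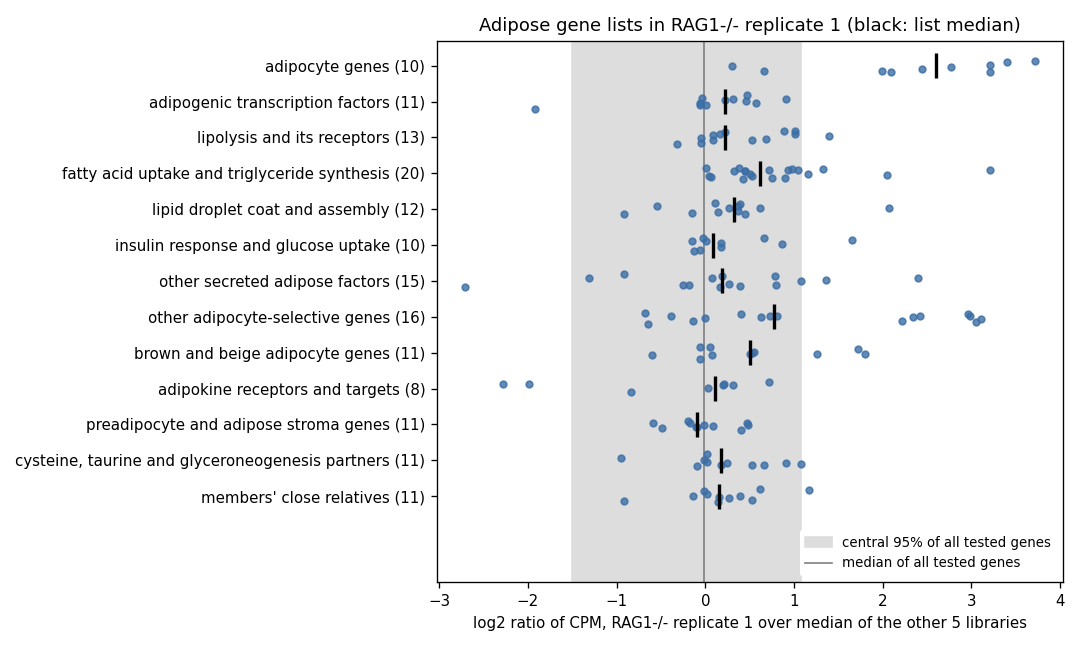
Log2 ratio of the CPM in RAG1-/- replicate 1 to the median of the other 5 libraries (x axis) for each gene of the adipose lists (rows, number of genes with a ratio in brackets); dots are genes, black bars are list medians, the grey band holds the central 95% of all tested genes (-1.50 to 1.08). The adipocyte genes lie furthest right with a median ratio of 6.13-fold, and 7 of the other adipocyte-selective genes lie beyond 2 on this scale.

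Of 13 tested genes of brown and beige fat, the heat-producing forms of adipose tissue, 3 were at least 2-fold above every other library in RAG1-/- replicate 1 (Ucp1, Cox8b and Otop1). Ucp1, the uncoupling protein that makes brown fat produce heat, had 114 reads (12.2 CPM) in replicate 1 and 0 in the other 5 libraries, at least 13.0-fold above the level of 3 reads in any of those. Otop1, a proton channel of brown fat, had 24 reads there and 0 elsewhere (at least 2.74-fold above the level of 3 reads), and Elovl3 8 reads and 0 elsewhere. Cox8b, a respiratory chain subunit of muscle and brown fat, had 19.6, 5.66 and 7.87 CPM in RAG1-/- and 2.02, 2.96 and 6.86 CPM in RAG1-/- Sgo1-/+ (log2 fold change -1.58, SE 0.56, edgeR adjusted P = 0.832). Cardiac muscle markers summed to 179, 120 and 216 CPM in RAG1-/- and 131, 144 and 203 CPM in RAG1-/- Sgo1-/+. The part of cardiac muscle in the Cox8b level was not tested.

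The receptors that answer these hormones were read next. Adipor1, an adiponectin receptor, lay between 201 and 255 CPM in all 6 libraries, and Adipor2 between 204 and 277 CPM. The leptin receptor Lepr had 117, 111 and 107 CPM in RAG1-/- and 101, 88.9 and 61.5 CPM in RAG1-/- Sgo1-/+, so its groups did not overlap (log2 fold change -0.41, SE 0.17, edgeR adjusted P = 0.832). Factor B (Cfb), the substrate of adipsin, and its partner C3 were at their lowest in RAG1-/- replicate 1. They had 20.2 CPM of Cfb and 187 CPM of C3 there, against 53.0 to 193 CPM and 374 to 1190 CPM in the other libraries. Of all tested genes, 2.58% were at least 2-fold below every other library there, and a link of Cfb and C3 to adipsin was not tested. Retnla, a relative of Retn made by alternatively activated macrophages, had 2580 CPM in RAG1-/- Sgo1-/+ replicate 6 and 83.6 to 133 CPM elsewhere (log2 fold change 3.42, SE 1.07, edgeR adjusted P = 0.832).

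By profile over the 6 libraries, the genes nearest to the mean of the members among 14631 with at least 60 reads were Plin4 (root mean square difference 0.216 in centred log2(CPM + 1)), Elovl6 (0.221), Mrap (0.335), Cyp2e1 (0.350), Ppp1r1a (0.357), Mup14 (0.362), Adrb3 (0.364) and Thrsp (0.375). All but Mup14 stood on an adipose list. The members and lists were chosen with earlier results of these data known, so this overlap is not independent of that choice. Mup14 had 62 reads in RAG1-/- replicate 1 and 0 elsewhere, and belongs to a family of near-identical copies, so its count is uncertain.

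Markers of other cell types were read in the same libraries. All 6 mesothelial markers, genes of the cells that line the outer surface of the lung, were at least 2-fold below every other library in RAG1-/- replicate 1, with a summed level of 98.4 CPM there and 411 to 1147 CPM elsewhere (the share over all genes was 2.58%). Upk3b, a membrane protein of that lining, had 14.1 CPM there and 147 to 459 CPM in the other 5. Endothelial markers lay between 1174 and 1479 CPM. Smooth muscle markers, relevant to Aoc3, summed to 127 to 249 CPM and differed in the other direction from it, with a median log2 fold change of 0.63. Of the 6, 4 were above every RAG1-/- library in all RAG1-/- Sgo1-/+ libraries, as were 1075 of all 17231 tested genes. At an unadjusted P under 0.05, 3 (Cnn1, Actg2 and Acta2) were higher (edgeR adjusted P = 0.832 each), against 3.15% of all genes. Skeletal muscle markers summed to at most 11.5 CPM, with Myh1 and Myh4 at 0 in every library. T cell markers summed to 1.71 to 24.9 CPM and red blood cell markers to 1309 to 4685 CPM, neither with replicate 1 at the high end. All 6 red blood cell markers had a negative log2 fold change, against 45.1% of all genes, with a median of -0.87. Of these, 2 (Hba-a1 and Hbb-b1) had an unadjusted P under 0.05 (edgeR adjusted P = 0.832 each), where 2.52% of all genes were lower at that threshold. The part of the mesothelial, smooth muscle or red blood cell differences, or of sex, in the level of the adipocyte genes was not tested.

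**Figure D4:**
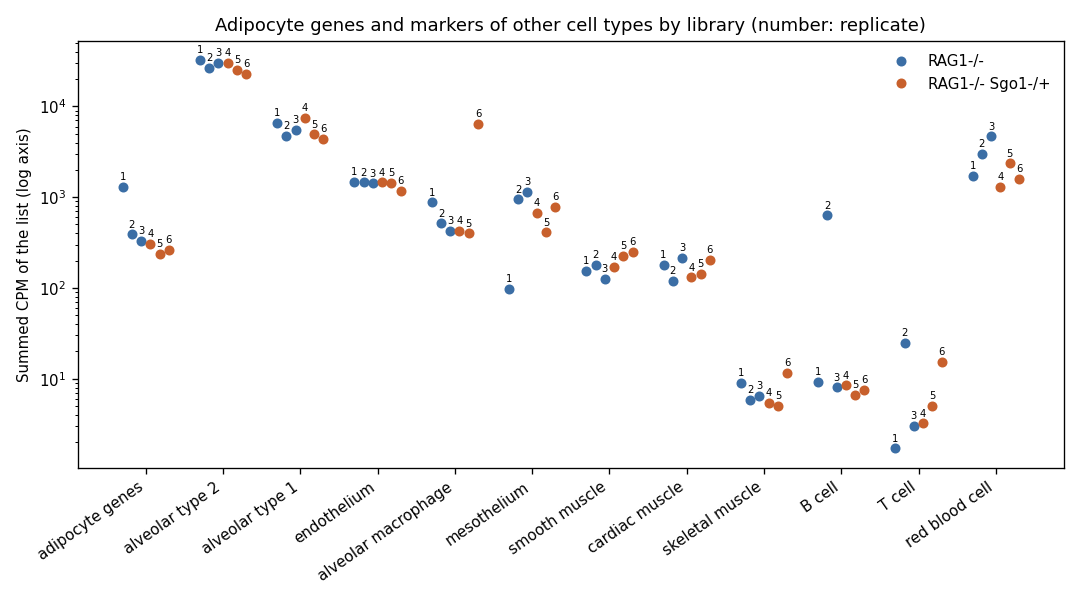
Summed CPM (log axis) of the 10 adipocyte genes and of 5 or 6 markers of each other cell type in the 6 libraries; points are libraries, coloured by group and numbered by replicate. Replicate 1 has the highest adipocyte sum (1304 CPM) and the lowest mesothelial sum (98.4 CPM), replicate 2 holds the B cell signal and replicate 6 the highest macrophage sum. Cdo1 is the largest single part of the adipocyte sum in replicates 2 to 6.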

How the data were processed

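Total lung RNA was made into TruSeq V2 libraries and sequenced on a MiSeq. The authors deposited raw counts of reads per gene from GeneSifter, mapped to mouse Build 37.2, and the submitters' processing notes name BWA and edgeR without versions. How reads with several places were counted is not given in the sources used here. Each library appears under 2 headings with equal values, and the first was used. Between 63.5% and 69.0% of non-zero counts were even. The reads were paired, and whether both reads of a pair were counted is not given. If they were, the counting intervals here are too narrow. With counts halved and rounded up, the median log2 fold change of the members was -1.62. The authors' own comparison list (means, ratios, p-values and ontology terms) was not used.

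Of 25860 Entrez IDs, 24048 (93.0%) matched a symbol. Genes with at least 10 counts in all were fitted with the edgeR 4.0.16 quasi-likelihood test in R 4.3.3, with total counts as library sizes, a prior count of 0.125 and Benjamini-Hochberg adjustment over 17231 genes. The SE is the size of the log2 fold change over the square root of F. Exon lengths came from GENCODE vM21 on GRCm38 and promoters from RefSeq. DESeq2 1.42.0, other scalings and filters and left-out libraries were alternatives. The workflow was tested on simulated data. Genes named were the 10 members, up to 4 genes per list with the lowest unadjusted P under 0.05 (otherwise the 2 most abundant), the 8 nearest profiles and markers that moved with a library; further list genes were named after their values were seen. The members and lists were chosen with earlier results of these data known. 1 marker gene is not reported here and was left out of the sums.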

Additional observations from a re-analysis of the deposited data

How the results depend on the processing

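No paired analysis was possible because the labels link no sample of a group to a sample of the other. The median log2 fold change of the members, -1.60, lay between -2.21 and -0.48 with any library left out and was -0.42 without RAG1-/- replicates 1 and 2, an alternative chosen after seeing the data that leaves 1 RAG1-/- library, assumed to vary like the rest. Fabp4 turned to 0.15 without replicate 1 and to 0.14 without both, and Plin1 to 1.23 without both. With any library left out, Fabp4 lay between -2.18 and 0.15. Of the single members, Adipoq, Cfd, Cidec, Plin1, Retn and Pck1 also moved by over 1.5 times without replicate 1, and Lep lay between -2.39 and -0.57 with a library left out. Calls by edgeR went from 0 to between 0 and 1 with a library left out (H2-K1 without RAG1-/- Sgo1-/+ replicate 5), to 1 without RAG1-/- replicates 1 and 2 (Nr4a1) and to 1 with DESeq2 (Awat1). Genes at an unadjusted P under 0.05, 976 in all, were 582 to 1434 with a library left out (582 without RAG1-/- replicate 3, 601 without RAG1-/- replicate 2) and 578 without RAG1-/- replicates 1 and 2, and the 13 lower adipose genes were 4 to 20, and 3 without RAG1-/- replicates 1 and 2. Scaling, filter and prior count settings left the median of the members between -1.79 and -1.55. The -1.79 came from a filter that dropped Plin1, Retn and Lep, and the other settings gave -1.63 to -1.55. Lep, Retn and Plin1 rest on few reads in most libraries, so their values carry wide counting error.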

Other observations

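Major urinary proteins, lipocalins that carry pheromones and are made mainly in liver, appeared in the same library as the adipocyte genes. Among 20 Mup genes listed, 11 reached 3 reads or more in RAG1-/- replicate 1 and 0 reads in each of the other 5 libraries. Over all 20 genes there were 460 reads in RAG1-/- replicate 1 and 0 elsewhere. Mup13 had 108 reads, Mup10 95, Mup2 86 and Mup14 62 there. The copies of this family are nearly identical, so the division of the reads among them is uncertain, and this family was picked with its values in view.

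The next genes were also picked with their values in view. The oxytocin receptor Oxtr had 30 reads in RAG1-/- replicate 1 and 0 in each of the rest. Nat8l, which makes N-acetylaspartate in brown fat and neurons, had 9.82 CPM there and 3.12 to 4.24 CPM elsewhere. The chemerin gene Rarres2, also an adipokine, went the other way, with 27.5 CPM there and 97.2 to 283 CPM elsewhere.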
